A study of Mus musculus with 24 samples.

Results

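Cells treated with interferon γ (IFNγ) were compared with control cells at day 5 of reprogramming, the last day of the treatment, in cells sorted for SSEA1, a surface marker of cells on the way to pluripotency. The comparison covered the genes with a mean above 10 normalized counts in the 4 day 5 libraries, which were 15133 of the 37315 genes in the table, and it used 4 of the 24 libraries of the series, replicates 1 and 2 of each arm. Cells of both arms came from PaX, a single female mouse embryonic stem cell (ESC) line of hybrid 129S1/SvImJ and CAST/EiJ origin. PaX carries an X-GFP reporter in Hprt on the X chromosome of M. musculus origin (X mus), a truncation of Tsix through which X mus is the X that is inactivated in differentiation, and a Nanog promoter-RFP reporter. It also carries a doxycycline-inducible cassette of c-Myc, Klf4, Oct4 and Sox2, with the transactivator rtTA in the Sp3 locus. Neural precursor cells (NPCs) made from this line were reprogrammed on irradiated male mouse embryonic fibroblasts, and both arms received LIF, L-ascorbic acid and doxycycline. The treated arm also received recombinant mouse IFNγ at 10 ng/ml from day 0 to day 5. SSEA1-positive cells were then enriched with magnetic beads and sorted by flow cytometry, and total RNA depleted of ribosomal RNA was sequenced. All values therefore describe 1 cell line. The study's methods call the pairs of replicates independent, and no source used here says what they shared or whether those of day 5 were separate inductions. The p-values measure the spread between these libraries.

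IFNγ is a cytokine made by T cells and natural killer cells. It binds the receptor of Ifngr1 and Ifngr2, the kinases Jak1 and Jak2 are activated, and phosphorylated transcription factors of the STAT family bind short DNA elements named gamma-activated sites (GAS). Further transcription factors are then switched on, among them Irf1, and interferon regulatory factors bind the interferon-stimulated response element (ISRE), which a complex with Stat2 and Irf9 also binds downstream of type I interferon. The best known target genes encode GTPases that act against intracellular pathogens, the immunoproteasome and peptide transporter that supply MHC class I with peptides, MHC class II molecules, chemokines that attract T cells, and Socs1, which shuts the kinases off. Stat3, activated by LIF through the receptor of Lifr and gp130, is the best known STAT of pluripotent mouse cells.

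Promoter sequences are shown for 8 of the genes that rose, to let the elements be read beside the values that follow. Each run holds the 130 bases just upstream of the RefSeq transcript start on GRCm38.p6, written 5′ to 3′ on the strand of the gene. Capitals mark a match to GAS (TTCNNNGAA) or to ISRE (GAAA, any 2 bases and GAAA again, or on the other strand TTTC, any 2 bases and TTTC).
Irf1, chr11:53769884-53770013, plus strand: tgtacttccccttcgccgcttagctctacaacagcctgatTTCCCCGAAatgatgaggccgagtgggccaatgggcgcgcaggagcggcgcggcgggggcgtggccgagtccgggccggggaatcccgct
Gbp2, chr3:142620533-142620662, plus strand: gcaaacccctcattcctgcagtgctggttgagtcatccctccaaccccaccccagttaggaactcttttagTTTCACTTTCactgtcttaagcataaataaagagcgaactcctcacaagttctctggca
Gbp7, chr3:142530206-142530335, plus strand: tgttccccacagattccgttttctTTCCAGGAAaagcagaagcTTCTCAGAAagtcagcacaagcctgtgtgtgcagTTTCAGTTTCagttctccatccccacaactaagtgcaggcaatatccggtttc
Tgtp2, chr11:49064213-49064342, minus strand: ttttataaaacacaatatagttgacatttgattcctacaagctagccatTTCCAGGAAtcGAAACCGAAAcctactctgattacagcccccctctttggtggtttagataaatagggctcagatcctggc
Irgm2, chr11:58214847-58214976, plus strand: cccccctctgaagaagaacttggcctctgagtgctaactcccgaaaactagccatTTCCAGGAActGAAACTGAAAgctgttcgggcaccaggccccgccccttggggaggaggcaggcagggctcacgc
Igtp, chr11:58199426-58199555, plus strand: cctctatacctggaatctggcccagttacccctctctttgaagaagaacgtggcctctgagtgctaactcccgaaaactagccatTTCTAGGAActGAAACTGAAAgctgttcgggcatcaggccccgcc
Psmb8, chr17:34198065-34198194, plus strand: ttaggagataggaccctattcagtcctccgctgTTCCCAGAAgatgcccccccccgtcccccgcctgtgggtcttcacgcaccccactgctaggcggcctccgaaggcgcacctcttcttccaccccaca
Socs1, chr16:10785537-10785666, minus strand: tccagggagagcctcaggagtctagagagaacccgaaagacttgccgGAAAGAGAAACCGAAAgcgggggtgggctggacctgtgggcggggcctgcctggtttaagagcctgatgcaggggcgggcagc

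In Tgtp2, Irgm2 and Igtp, genes of the immunity-related GTPases, a GAS match was followed by an ISRE match after 2 bases. Irf1 and Psmb8 had 1 GAS match in the bases shown, Gbp2 had 1 ISRE match, Gbp7 had 2 GAS matches and 1 ISRE match, and the capitals of Socs1 are 2 overlapping ISRE matches. The same letters were counted on both strands in RefSeq windows from 250 bases upstream to 50 bases downstream of the start, which 187 of the 249 genes that rose, 57 of the 81 that fell and 10851 of the 15133 tested had. An ISRE match stood in 43 of the 187 windows of genes that rose, in 37 of 109 for those that rose at least 2-fold (33.9%) and in 13 of 30 for those that rose at least 8-fold (43.3%). It stood in 3 of 57 windows of genes that fell (5.26%), in 3.53% of those of all genes tested and in 3.44% of all 32851 windows. For GAS the shares were 16.0%, 19.3% and 33.3% of the genes that rose, in the same order, against 10.5% of the genes that fell, 8.16% of the genes tested and 8.30% of all windows. Windows with both elements made up 5.35% of those of genes that rose and 0.424% of those of genes tested. A match is a description of letters and not evidence of binding.

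The 4 libraries held 33106141 to 37056508 reads on genes. With limma, 249 of 15133 genes (1.65%) were higher with IFNγ and 81 (0.535%) were lower, at an adjusted p under 0.1, 2.18% in either direction. Every one of these genes had both IFNγ libraries on the same side of both control libraries, as had 53.3% of all genes tested. Of the increases, 44 were at least 8-fold, 77 at least 4-fold and 154 at least 2-fold on the log2(value + 1) scale, and the median log2 fold change of the 249 was 1.27. The decreases were small, with a median of −0.63, 13 genes at least 2-fold lower and 1 gene at least 4-fold lower. That gene, Ndufa4l2, a mitochondrial protein gene induced by hypoxia, had 109 and 58.6 normalized counts in the control and 16.4 and 3.16 with IFNγ, and was not called without control replicate 1 (limma adjusted p = 0.269), control replicate 2 (0.123) or IFNγ replicate 2 (0.132). Over all genes tested the median was −0.00168. edgeR on the recovered reads called 257 genes higher (1.7%) and 84 lower (0.555%), and DESeq2 called 556 (3.67%) and 356 (2.35%).

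**Figure D1:**
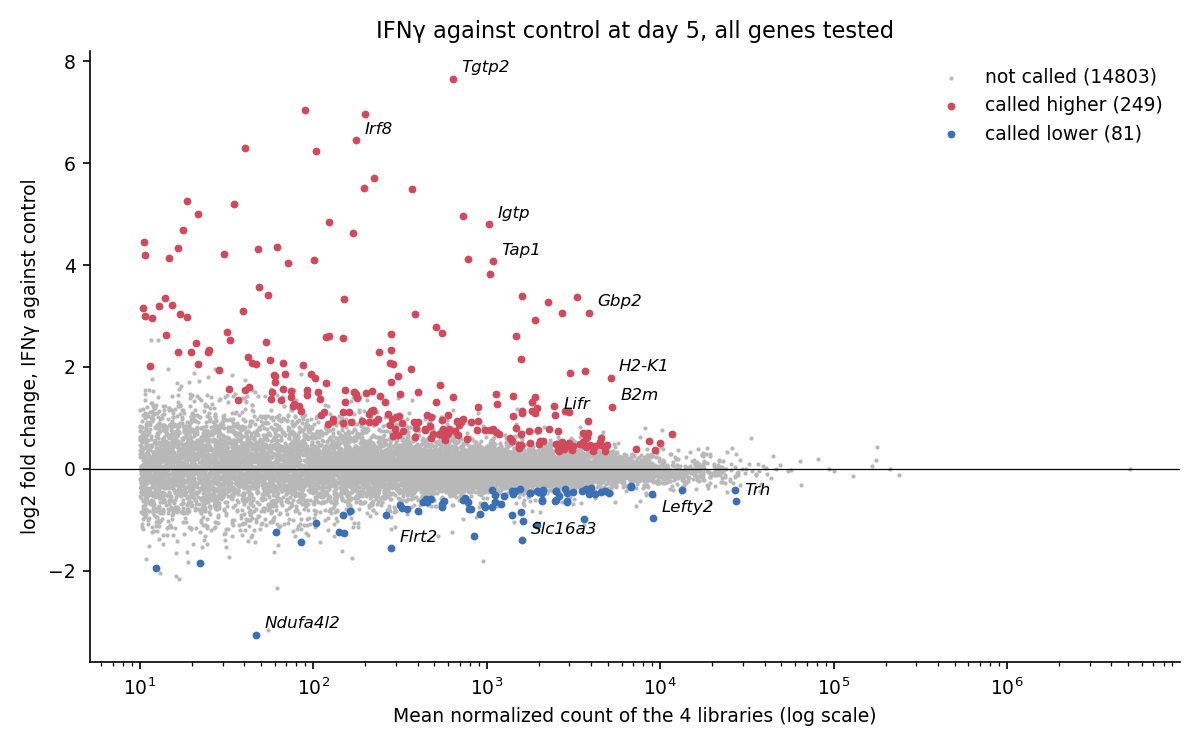
Each of the 15133 genes is drawn at its mean normalized count over the 4 libraries (x axis, log scale) and its log2 fold change of IFNγ against control (y axis), with the 249 genes called higher in red, the 81 called lower in blue and the rest in grey. Genes called higher reached a log2 fold change of 7.66 (Tgtp2), while the genes called lower lay close to the grey cloud except for Ndufa4l2 at −3.25.

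When each library was left out in turn, 94 of the 249 increases were called in all 4 fits, and Nefl was the 1 of the 81 decreases that was. Without control replicate 1, 145 genes were called higher and 5 lower, and without control replicate 2 the numbers were 154 and 35. Without IFNγ replicate 2 they were 107 and 10, and without IFNγ replicate 1 they rose to 971 and 852. In these fits the remaining library of an arm is assumed to vary like those of the other arm.

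Of 11 receptor, JAK and STAT genes tested, 3 rose and none fell, and all 3 calls held in each fit without 1 library. Stat2, part of the type I interferon complex (GRCm38 chromosome 10 from 128270559 to 128292849), had 610.2 and 473 normalized counts in the control libraries and 1231 and 1263 with IFNγ, 2.3-fold more. Its log2 fold change was 1.21 ± 0.14 (SE, limma adjusted p = 0.0115). Nmi, which encodes an N-Myc and STAT interactor, had 138 and 162 against 392 and 350.3 (2.48-fold). The receptor subunit gene Ifngr1 had 435 and 389.9 in the control against 341 and 318 with IFNγ and was not called (limma adjusted p = 0.257). Stat3, with 2885 and 3275 against 3621 and 4138, was not called by limma either (limma adjusted p = 0.172). Both its IFNγ libraries were above both control libraries, as in 26.6% of all genes tested. DESeq2 called 4 of the 11 genes higher and none lower.

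Of the 11 feedback genes, 2 rose. Socs1, an inhibitor of the JAK kinases whose promoter with the overlapping ISRE matches is shown above, had 35.3 and 32 normalized counts in the control and 145 and 137 with IFNγ (log2 fold change 2.03 ± 0.22 SE, limma adjusted p = 0.00929). Socs3, which dampens signals through gp130, was far more abundant and moved less, with 2973 and 2929.8 against 4259.9 and 4255, 1.44-fold more (limma adjusted p = 0.0208). In both genes the arms were far apart compared with the spread of the libraries, and both calls held without each library.

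Of 10 interferon regulatory factors and their binding proteins tested, 4 rose and none fell, with a list median log2 fold change of 0.46. Irf1 (chromosome 11 from 53770014 to 53778374) had 1198 and 1392 normalized counts in the control and 4852 and 4638 with IFNγ (3.66-fold, limma adjusted p = 0.000234). Irf8, a factor known from myeloid cells, was close to absent without IFNγ and had a clear level with it, 3.37 and 2.66 against 381 and 319.5 (log2 fold change 6.45 ± 0.28 SE, limma adjusted p = 0.000121). Irf1 and Irf8 held in all 4 fits without 1 library. Irf9, the DNA-binding part of the type I interferon complex, had 601 and 696 against 1038 and 1178 (limma adjusted p = 0.0445), and lost the call without control replicate 1 (adjusted p = 0.148) and without IFNγ replicate 2 (0.174). Irf7, with 46.3 and 44.4 against 104 and 111 (limma adjusted p = 0.0623), kept it only without IFNγ replicate 1 (0.0601), and had 0.175, 0.158 and 0.290 without control replicate 1, control replicate 2 and IFNγ replicate 2. Irf3, the factor activated by viral RNA, had 886 and 953 against 877 and 806 and was not called.

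**Figure D2:**
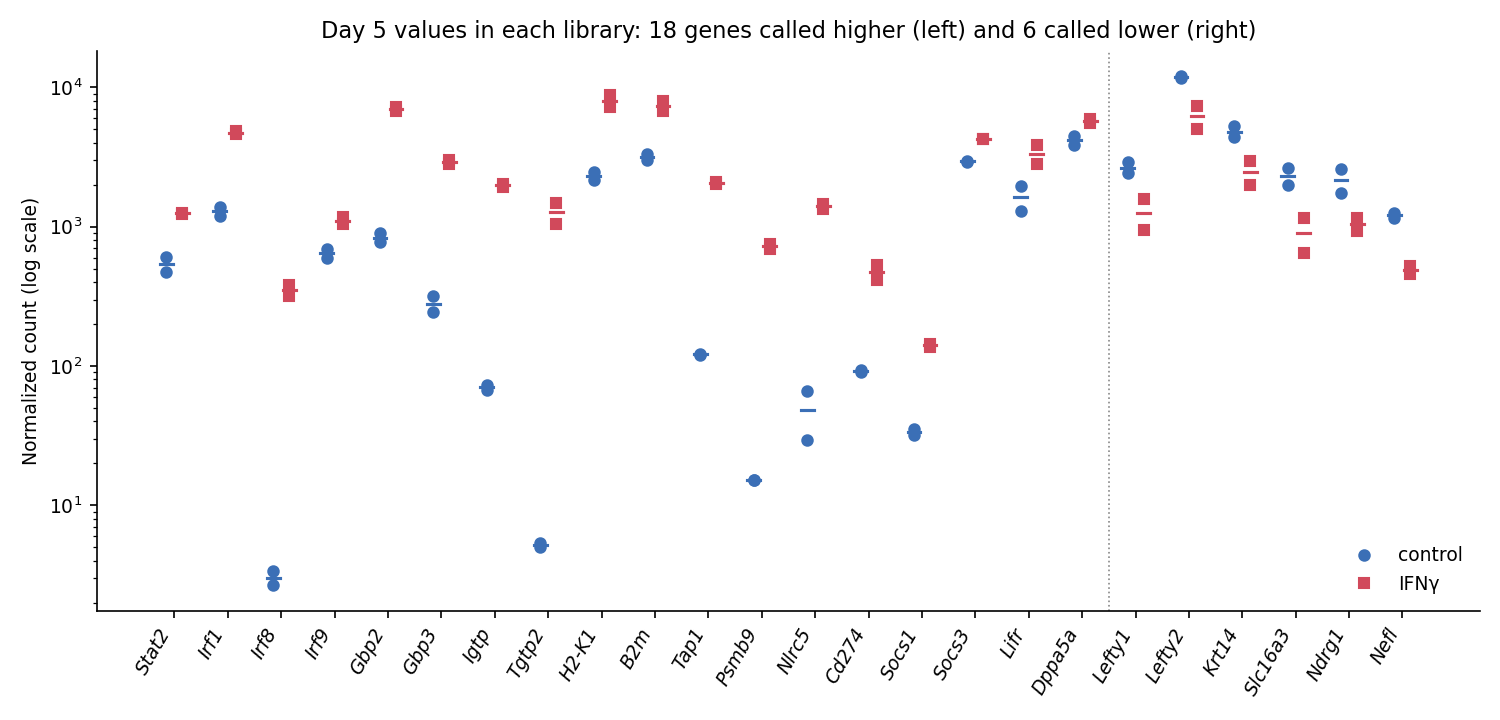
Normalized counts (y axis, log scale) of 24 genes in each day 5 library, control as blue circles and IFNγ as red squares, with the mean of each arm as a bar. The 18 genes left of the dotted line were called higher and the 6 right of it lower. The arms are apart in every gene, as in all genes called, by the widest gap in Tgtp2 and by the smallest in Dppa5a.

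All 8 guanylate-binding protein genes tested were higher, with a median log2 fold change of 3.23, and all 11 immunity-related GTPase genes, with a median of 5.20. Both families encode proteins that attack the vacuoles of intracellular pathogens. Summed over the 8 genes, the guanylate-binding proteins had 1958 and 2187 normalized counts in the control and 17568 and 16927 with IFNγ, while ESCs had 78.6 and 82.8. Gbp2 alone accounted for much of this level, with 773 and 895 against 7229 and 6739 (8.37-fold, limma adjusted p = 2.96e-05). Gbp7 had 412 and 436 against 4026 and 4167 (9.66-fold), and Gbp3 had 242 and 319 against 2827 and 3029 (10.4-fold). The control cells thus held these transcripts without added IFNγ. Gbp8 and Gbp2b started lower, Gbp8 with 6.73 and 7.99 against 144 and 129 and Gbp2b with 10.1 and 7.1 against 108 and 93.3. These genes are alike in sequence, and the annotated spans of Gbp4 and Gbp8 overlap, so reads may have been shared or dropped in counting. Of the 8 calls, 7 held without each library. The exception, Gbp11, had 2 reads in each control library and 28 and 30 with IFNγ, a ratio of 13.8 with a 95% counting interval from 5.12 to 52.5, and fell under the expression filter when an IFNγ library was left out.

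Most immunity-related GTPases started from low levels. Tgtp2 (chromosome 11 from 49057194 to 49064206) had 5.05 and 5.33 normalized counts in the control and 1492 and 1049 with IFNγ, the largest log2 fold change of all genes called, 7.66 ± 0.24 (SE, limma adjusted p = 2.96e-05). Its neighbour and near copy Tgtp1 had 1 and 0 reads in the control libraries and 228 and 204 with IFNγ. Their ratio was 412 with a 95% counting interval from 73.6 to 16327, and reads of the pair may have been shared between them in counting. Iigp1 had 5.05 and 10.7 normalized counts against 422 and 454, and Ifi47 had 0.842 and 4.44 against 404 and 386. Igtp, whose promoter holds the paired elements, had 67.3 and 72.8 against 2042 and 1937, 28.4-fold more (limma adjusted p = 1.6e-05). The regulatory member Irgm1 had the highest control level and the smallest log2 fold change of the family, 388 and 509 against 3401 and 3325 (7.5-fold). Of the 11 calls, 10 held without each library. The exception, 9930111J21Rik1, had 2 and 1 reads in the control libraries.

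Of 15 class I genes tested, 13 were higher and none lower, with a median log2 fold change of 1.96, and of 15 genes of class I antigen processing 11 were higher, with a median of 1.20. H2-K1, a classical class I heavy chain, had 2466 and 2165 normalized counts in the control and 8835 and 7261 with IFNγ (3.48-fold, limma adjusted p = 0.000726). The light chain gene B2m had 3305 and 3018 against 8022 and 6788 (2.34-fold). The nonclassical genes H2-Q7 and H2-Q4 moved more and from lower levels, H2-Q7 with 9.26 and 5.33 against 503 and 265 and H2-Q4 with 72.4 and 93.2 against 748 and 630.3. H2 genes are close in sequence, so reads may have been divided among them or dropped in counting, and alleles of 129S1/SvImJ and CAST/EiJ differ there. The calls of 8 of the 13 held without each library. The 5 that did not were H2-T10, H2-T24, H2-Q2, H2-Q5 and H2-M3, which had at most 40.4 normalized counts in a control library. H2-Q5 was called in 3 fits and fell under the expression filter without IFNγ replicate 1, and the other 4 had their highest adjusted p, 0.174 to 0.270, without IFNγ replicate 2.

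Nlrc5, the transactivator of class I genes, had 66.5 and 29.3 normalized counts in the control and 1466 and 1351 with IFNγ, 29.4-fold more (limma adjusted p = 0.00108). The immunoproteasome subunit gene Psmb9 had 15.1 and 15.1 against 756 and 696 (48-fold), and Psmb8 had 144 and 128 against 2122 and 1776 (14.3-fold). The peptide transporter gene Tap1 had 121 and 121 against 2039 and 2083 (17-fold, limma adjusted p = 1.6e-05). In these genes the IFNγ libraries differed by little compared with the gap to the controls. All 11 calls of the processing list held without each library, among them the proteasome activator genes Psme1 and Psme2 at 2.16-fold and 2.3-fold, the peptide editor Tapbp at 2.19-fold and the trimming peptidase Erap1 at 2.13-fold. The general chaperones of the endoplasmic reticulum in this list were not called by limma, Canx with 24085 and 25201 against 23069 and 22383 and Calr with 23220.0 and 22814 against 19149.6 and 17518. DESeq2 called Calr lower (adjusted p = 0.0171). Psmb10, the remaining immunoproteasome subunit, had 1138 and 1252 against 2124 and 1622 and just missed the threshold (limma adjusted p = 0.103).

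Of 10 class II presentation genes tested 2 were higher and 1 lower. Cd74, the invariant chain, had 16 and 15.1 normalized counts in the control and 95.7 and 87.8 with IFNγ (log2 fold change 2.49 ± 0.26 SE, limma adjusted p = 0.00813). H2-Eb1 had 41.2 and 50.6 against 115 and 159.8 (limma adjusted p = 0.055), and was not called without control replicate 1 (0.159) or IFNγ replicate 2 (0.252). The class II master regulator Ciita stayed under the expression filter, with 0.842 and 0.888 normalized counts in the control and 15.5 and 16.6 with IFNγ. Ifi30, a thiol reductase of the lysosome that helps to unfold antigens, went the other way, with 3684 and 3358 against 2369.7 and 2149.5 (limma adjusted p = 0.0266), and was not called without control replicate 1 (0.121).

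**Figure D3:**
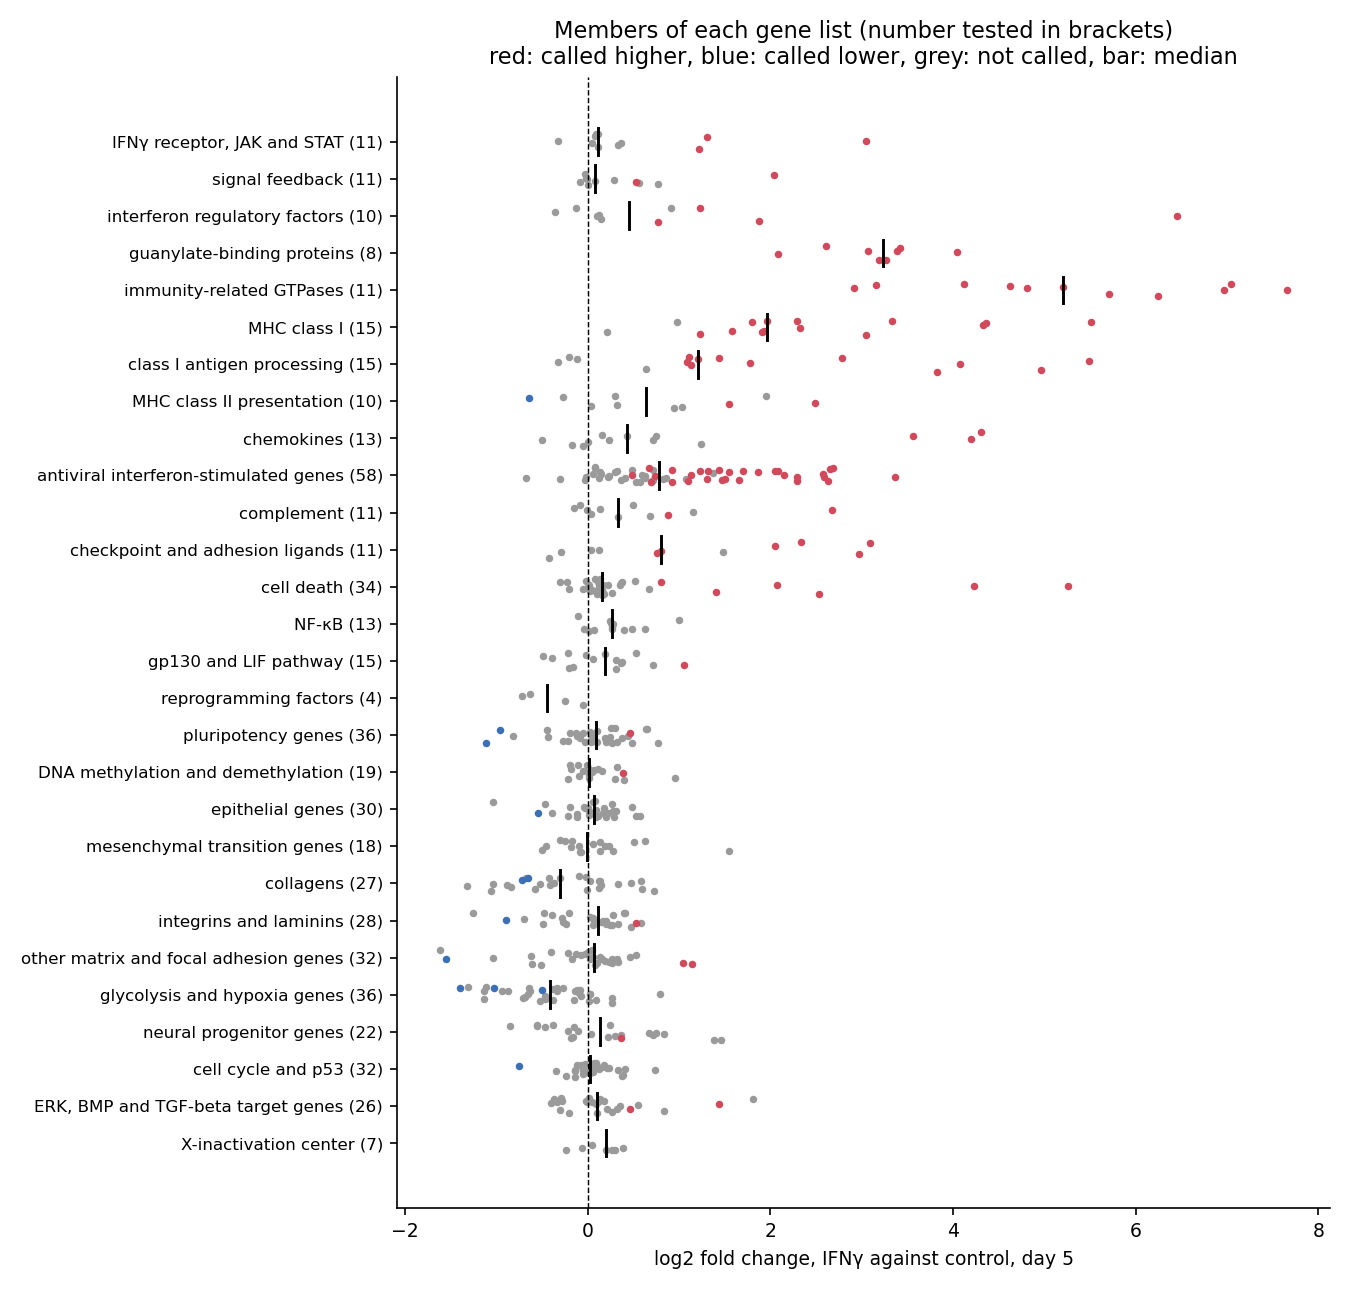
Log2 fold changes of IFNγ against control at day 5 (x axis) for the members of 28 gene lists (y axis, with the number tested in brackets), red for members called higher, blue for members called lower, grey for the rest, and a black bar at the list median. The dashed line marks the median of all genes tested. The 8 guanylate-binding protein genes and 11 immunity-related GTPase genes are all red, while the glycolysis and hypoxia list has its median at −0.41 with 3 blue members.

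Of 58 antiviral interferon-stimulated genes tested, 29 were higher and none lower, with a median log2 fold change of 0.78, and in 44 of them both IFNγ libraries were above both control libraries, which 26.6% of all genes tested showed. Oasl2, a 2′-5′ oligoadenylate synthetase-like protein, had 64.8 and 88.8 normalized counts in the control and 448 and 518 with IFNγ (log2 fold change 2.65 ± 0.20 SE, limma adjusted p = 0.00154). Oas3, which makes the 2′-5′ oligoadenylates that activate RNase L, had 38.7 and 44.4 against 210.4 and 302, and Zbp1, a sensor of Z-form nucleic acids, had 77.4 and 83.5 against 376 and 418. Uba7, the activating enzyme of the ubiquitin-like Isg15, had 33.7 and 32 against 179 and 229. These rose 6.29-, 6.17-, 4.94- and 6.23-fold, and their calls were among the 16 of the 29 that held without each library. Isg15 itself had 19.4 and 31.1 against 96.6 and 119 (limma adjusted p = 0.0364), and was not called without IFNγ replicate 2 (0.174). Abundant members of the same list were not called, such as Ifitm2 with 2724 and 2656 against 3075 and 2889.8 and the RNA editing enzyme Adar with 1466 and 1701 against 1784 and 1923.

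Secreted and surface immune molecules rose in part. Of 13 chemokine genes tested 3 were higher, Cxcl9, Cxcl10 and Cxcl11, the ligands of Cxcr3, a receptor on activated T cells. Cxcl10 had 5.05 and 2.66 normalized counts in the control and 92.3 and 92.5 with IFNγ (limma adjusted p = 0.00254). Cxcl9 had no read in either control library and 10 and 43 with IFNγ, at least 8.43-fold higher when the control is set to a floor of 3 reads per library, and was not called without control replicate 1 (0.132) or control replicate 2 (0.115), and fell under the expression filter without IFNγ replicate 2. Of 11 checkpoint and adhesion ligands 6 were higher. Cd274 (PD-L1), which restrains T cells, had 93.4 and 90.6 against 415 and 527 (5.12-fold, limma adjusted p = 0.0014), and the secreted glycoprotein gene Lgals3bp had 100.2 and 124 against 499 and 435. Among 11 complement genes the 2 called were Serping1, the C1 inhibitor, with 136 and 163 against 951 and 959, and C1ra, with 86.7 and 83.5 against 159 and 156. C1ra lost its call whichever of the 4 libraries was left out (adjusted p from 0.103 to 0.371).

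Of 34 cell death genes 6 were higher and none lower. Gsdmd, the pore-forming protein of pyroptosis, had 319 and 373 normalized counts in the control and 789.9 and 1064 with IFNγ (2.68-fold, limma adjusted p = 0.0148). Casp1, which cleaves it, had no read in the control libraries and 45 in each IFNγ library, at least 14.3-fold higher against 3 reads per library. Casp12 had 2 and 3 reads against 53 and 92, a ratio of 27.7 with a 95% counting interval from 11.6 to 86.5. The calls of these 3 held without each library. Fas, the death receptor, and Mlkl, the executor of necroptosis, had 16.8 and 16 against 75.9 and 68.8 and 10.1 and 7.99 against 55.2 and 58.5, and just missed the threshold of 0.1 without IFNγ replicate 2 (0.101 and 0.102). Of 13 NF-κB genes tested, none was called in either direction by limma.

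Among pluripotency genes 1 of 36 was higher and 2 were lower, with a median log2 fold change of 0.09. Lefty1 and Lefty2, secreted inhibitors of Nodal signalling, were the decreases. Lefty1 had 2413 and 2893 normalized counts in the control and 1579.8 and 948 with IFNγ (log2 fold change −1.11 ± 0.22 SE, limma adjusted p = 0.0928). Lefty2 had 11786 and 12049.5 against 7406 and 5058 (log2 fold change −0.96 ± 0.16 SE, limma adjusted p = 0.0579). Neither was called without control replicate 1 (0.139 and 0.130) or without control replicate 2 (0.172 and 0.113). Dppa5a, an RNA-binding protein of pluripotent cells, was the increase, with 3848 and 4498 against 5533 and 5950.4 (limma adjusted p = 0.0917), and was not called without control replicate 1 (0.276) or IFNγ replicate 2 (0.295). Nanog, with 4184 and 4110.0 against 4016 and 3564, and Esrrb, with 3917 and 5166 against 5636 and 7035, were not called by limma. DESeq2 called 3 of the 36 pluripotency genes higher and 2 lower. Of the 15 genes of the gp130 and LIF pathway, Lifr was the 1 that rose, from 1296 and 1959 to 2833 and 3852 (2.05-fold, limma adjusted p = 0.0932), and its call was lost without control replicate 1 (0.175) and without IFNγ replicate 2 (0.276). None of the 4 reprogramming factors, whose reads may come from the cassette or the endogenous gene, was called by limma. All 4 had both IFNγ libraries below both control libraries, which 26.8% of all genes tested showed, with a median log2 fold change of −0.44. Klf4 had 9849 and 8833 against 6936 and 5197 (limma adjusted p = 0.102), and Myc had 9666 and 8399 against 6587 and 4504 (limma adjusted p = 0.122). DESeq2 called these 2 lower (adjusted p = 0.000327 and 0.000367).

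Of 19 genes of DNA methylation and demethylation, Zfp57, which keeps imprints methylated, was the 1 called by limma. It had 6189 and 6483 normalized counts in the control and 7781 and 8741 with IFNγ (limma adjusted p = 0.0992), and was called in 1 of the 4 fits without a library, that without IFNγ replicate 1. Gadd45a had 339 and 455 against 592 and 977 and Tet1 had 7718 and 9355 against 10138 and 11154, with adjusted p = 0.149 and 0.193 in limma. DESeq2 called both higher (adjusted p = 0.00154 and 0.0952), and 3 genes of the list in all. Of the 21 genes that the study names for day 5, limma called 5 higher and none lower, and DESeq2 called 9 higher and 4 lower. The study chose these genes on the same samples. None of the 7 genes of the X-inactivation center tested was called by limma, DESeq2 or edgeR. Xist, the RNA that coats the inactive X, had 9180.3 and 10160.5 against 8783 and 11239, and Rlim, its activator, had 15483 and 20005 against 18615 and 23907. The X mus proportion of the authors is the share of X mus in the allelic expression of a gene. It is 1 value per gene and population with no replicate. Its median over 316 genes was 0.0117 in control and 0.0125 in IFNγ-treated cells at day 5. The median was 0.00107 in NPCs and 0.481 in ESCs. At day 2 it was 0.0212 in control and 0.0164 in IFNγ-treated cells. At day 7, control first, it was 0.00896 and 0.0188 in X-GFP-negative cells. X-GFP-medium cells had 0.110 and 0.236, and X-GFP-high cells 0.336 and 0.396. At day 5 the proportion was higher with IFNγ for 152 genes and lower for 125, with a median difference of 0. The reads behind each proportion are not known.

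Among 36 glycolysis and hypoxia genes tested limma called 3 lower and none higher, and DESeq2 called 12 lower and 1 higher. The list median was −0.41 against −0.00168 over all genes. In 23 of the 36, both IFNγ libraries were below both control libraries, which 26.8% of all genes tested showed. Slc16a3, the lactate exporter, had 2628 and 1978 normalized counts in the control and 1161 and 644 with IFNγ (log2 fold change −1.40 ± 0.27 SE, limma adjusted p = 0.0801), and was not called without control replicate 1 (0.198). Ndrg1, a gene induced by hypoxia, had 2601 and 1742 against 1159 and 936 (limma adjusted p = 0.0779), and was not called without control replicate 1 (0.140) or IFNγ replicate 2 (0.231). Pfkp, a phosphofructokinase, had 4663 and 4461 against 3354 and 3107 (limma adjusted p = 0.0418), and was called without IFNγ replicate 1 (0.0209) and not in the other fits without a library (0.106 to 0.170). The most abundant enzymes of the list were not called by limma, Pkm with 44187 and 42162 against 36211 and 27819.8 and Gapdh with 24762 and 25004 against 23489.6 and 21411. In Slc16a3, Ndrg1 and Pfkp replicate 2 was below replicate 1 in both arms. This held for 48 of the 81 decreases (59.3%) and 56 of the 249 increases (22.5%). Replicate 2 was above replicate 1 in both arms for 4 of the decreases (4.94%) and 87 of the increases (34.9%). Neither share was counted over all genes tested, so these shares cannot be read as particular to the called genes. Over the 15133 genes tested the replicate differences of the arms correlated with 0.363. Their cause was not tested.

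Among 27 collagen genes limma called 2 lower and none higher, with a list median of −0.31, and DESeq2 called 6 lower and 1 higher. Both IFNγ libraries were below both control libraries in 13 of the 27 and above them in 5, which 26.8% and 26.6% of all genes tested showed. Col6a1 had 555 and 558 normalized counts in the control and 333 and 372 with IFNγ (limma adjusted p = 0.0712), and Col4a5 had 426 and 366 against 250.1 and 229 (limma adjusted p = 0.0932). Both were called without IFNγ replicate 1 and not in the other 3 fits without a library, where the adjusted p ran from 0.146 to 0.338. Col1a1, Col3a1 and Col5a1, fibrillar collagens that the study names, were not called by limma. They had 439 and 321 against 272 and 161, 191 and 226 against 125 and 99.6, and 885 and 813 against 654 and 607, each with the IFNγ libraries below the controls (limma adjusted p = 0.196, 0.11 and 0.137). The integrin gene Itga9, also named by the study, had 519 and 417 against 358 and 229, with the arms likewise apart (limma adjusted p = 0.197). DESeq2 called all 4 lower (adjusted p = 0.0586, 0.0397, 0.0748 and 0.0784). Of 28 integrin and laminin genes, Itga7 was lower with 194 and 194 against 108 and 100.4, and the laminin gene Lamb1 was higher with 3596 and 3726 against 4839 and 5779.6. Of 32 other matrix genes, Thbs1 (thrombospondin) and the crosslinking enzyme gene Loxl1 were higher. Thbs1 had 1162 and 723 against 1814 and 1959.7. The adhesion gene Flrt2 had the largest decrease under the naming rule, with 492 and 340.1 against 192 and 99.6 (log2 fold change −1.56 ± 0.32 SE, limma adjusted p = 0.0992). None of Itga7, Lamb1, Thbs1, Loxl1 and Flrt2 was called in all fits without a library, the highest adjusted p being 0.298, 0.210, 0.257, 0.416 and 0.268. Fibroblast markers, which feeder cells would also bring, summed to 2260 and 1584 normalized counts over 14 genes in the control and 1757 and 1398 with IFNγ, with Dpt at 0 and 6 of the 14 under the expression filter, and among them Pdgfra was higher (58.1 and 50.6 against 191 and 129, limma adjusted p = 0.0577). Of the 8 tested, 3 had both IFNγ libraries below both control libraries, as had 26.8% of all genes tested. These were Dcn, Mfap5 and Thy1, with log2 fold changes of −1.23, −0.99 and −0.81, called by neither limma nor DESeq2 (limma adjusted p = 0.209, 0.238 and 0.198). In 2, Pdgfra and Cthrc1 (611 and 643 against 739 and 798), both IFNγ libraries were above both control libraries, as in 26.6% of all genes. In Pdgfrb, Postn and Prrx1 the arms overlapped, and the list median was −0.06. The call of Pdgfra was lost without control replicate 1 (0.118) and without control replicate 2 (0.133). The part of fibroblasts in the matrix changes was not tested. In bulk RNA, fewer cells of a type and less RNA per cell cannot be told apart.

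Krt14, a keratin of basal epidermis, had 5258 and 4383 normalized counts in the control and 2942 and 1983 with IFNγ (limma adjusted p = 0.0712). Dsg1b, a desmosomal cadherin, had 246 and 183 against 94.9 and 81.5, and Il1rn, the interleukin-1 receptor antagonist, had 132 and 115 against 56.1 and 36.4. In the list of 30 epithelial genes, Esrp2, a splicing regulator, was the 1 gene that limma called lower and none was higher, and the list median was 0.07. Esrp2 was not called without control replicate 1 (0.288) or IFNγ replicate 2 (0.296). Cdh1, the epithelial cadherin, with 16261 and 16199.5 against 15152 and 16776, was not called. Krt14 was called in 3 of the 4 fits without a library and not without control replicate 1 (0.184), and Dsg1b and Il1rn in 2 and 1 of them. The decrease of Nefl, the neurofilament light chain, was called in all 4, with 1155 and 1265 against 521 and 454 (log2 fold change −1.31 ± 0.11 SE, limma adjusted p = 0.0029).

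Other lists moved little. Of 32 cell cycle and p53 genes, Ccne2, the cyclin of entry into S phase, was the 1 called, with 1204 and 1237 normalized counts in the control and 826 and 633 with IFNγ (limma adjusted p = 0.0694). Mki67, a marker of cycling cells, had 16645 and 15921 against 17622 and 16941 and was not called. Of 26 targets of ERK, BMP and TGF-β signalling, Dusp6, a phosphatase that limits ERK, had 2208 and 2227 against 3080.2 and 3012 (limma adjusted p = 0.0462), and the endoderm factor Gata6 had 58.9 and 40.9 against 144 and 127 (limma adjusted p = 0.0623). Of 22 neural progenitor genes, Notch1 was the 1 called, at 1.29-fold. None of 18 genes of mesenchymal transition was called by limma. The highest adjusted p of Ccne2, Dusp6, Gata6 and Notch1 without 1 library was 0.175, 0.175, 0.193 and 0.280, so none held in all 4 fits.

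Levels of marker genes were set beside the label of the sorted cells. The 10 genes marking SSEA1-positive reprogramming cells, among them Fut9, whose enzyme makes the SSEA1 epitope, summed to 54090 and 58633 normalized counts in the control and 58008 and 61783 with IFNγ, against means of 1949 in NPCs and 138640 in ESCs. Neural progenitor markers summed to 5918 and 5702 in the control and 5645 and 5201 with IFNγ, against 48694 in NPCs. Most of the day 5 sum was Nes, with 5339 and 5289 against 4802 and 4570. Slc1a3 (199 and 178 against 379 and 265) and Ptprz1 (164 and 130 against 245 and 236) had both IFNγ libraries above both control libraries, as had 26.6% of all genes tested. Nes had both below, as had 26.8%. Of the 7 markers tested, limma called none and DESeq2 called 2 higher and none lower, and the median log2 fold change was 0.24. The 4 Y-linked genes that male feeder cells would bring summed to 5.89 and 2.66 in the control and 8.62 and 8.70 with IFNγ, against a mean of 235 in day 2 control cells. Of 12 macrophage and leukocyte markers, Tyrobp and C1qa were at 0 in all 4 libraries and 3 passed the expression filter (Cd68, Laptm5 and Mrc1), none of them called by limma. The 12 summed to 1181 and 1333 normalized counts in the control and 1378 and 1896 with IFNγ, against means of 136 in NPCs and 1572 in ESCs. Both IFNγ libraries were above both control libraries in the sum, in Cd68 and in Laptm5, as in 26.6% of all genes tested. They were below them in Mrc1 (23.6 and 32 against 16.4 and 19), as in 26.8%. Under the filter, Ptprc (16 and 12.4 against 6.04 and 5.54) and Lyz2 (8.42 and 31.1 against 0 and 0) were also lower. The part of leukocytes in the increases was not tested. The 9 endothelial markers summed to 2314 and 2788 in the control and 2022 and 3110 with IFNγ. Their means were 615 in NPCs and 1087 in ESCs. Tie1 had the highest level of them, with 1157 and 1777 against 1238 and 2291. Of the 7 endothelial markers tested, limma called none and DESeq2 called 1 lower. Whether endothelial cells were in the sort was not tested.

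The effect at day 5 was then set against that at day 2, with a test of the difference itself over the 8 libraries of both days. At day 2, unsorted for SSEA1 but depleted of stained feeders, 790 of 15697 genes were higher (5.03%) and 542 lower (3.45%). Of the 249 increases at day 5, 170 were also called higher at day 2 (68.3%), against 4.69% of all genes tested at day 5. Of the 81 decreases, 34 were called lower at day 2 (42.0%), against 3.44%. The effect was more positive at day 5 for 32 of 15837 genes (0.202%) and more negative for 75 (0.474%). The effect was more negative at day 5 for 7 of the 8 guanylate-binding protein genes, 6 of the 15 class I genes, 7 of the 15 antigen processing genes, 5 of the 10 class II genes and 2 of the 11 immunity-related GTPases. It was more positive for 1 class I gene and for none of the other 4 lists. Of the 58 antiviral genes, 11 had a more positive effect at day 5 and 1 a more negative one. Leaving out 1 of the 8 libraries moved the first number between 8 (without day 2 control replicate 2) and 191 (without day 5 IFNγ replicate 1), and the second between 42 (without day 2 IFNγ replicate 1) and 270 (without day 5 IFNγ replicate 1).

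Among genes with a group mean of at least 100 at day 5, H2-Eb1 showed the largest loss. Cd74, below that level, lost more (7.84 at day 2 and 2.49 at day 5, difference −5.35). At day 2 H2-Eb1 had 9.17 and 6.95 normalized counts in the control and 1212 and 789 with IFNγ, a log2 fold change of 6.77 against 1.55 at day 5, and the difference was −5.22 ± 0.39 (SE, limma adjusted p = 0.000974). Gbp4 had 90.6 and 90.3 against 8541 and 8823 at day 2 and 404 and 417 against 2761 and 2293 at day 5 (difference −3.95 ± 0.14, limma adjusted p = 8.02e-06). Here the control level was higher and the IFNγ level lower at day 5 than at day 2. H2-K1 had 1082 and 1089 against 34407 and 32926 at day 2, and its log2 fold change of 4.95 compared with 1.79 at day 5 (difference −3.16). The immunity-related GTPases Tgtp2 and Ifi47 and the transporter Tap1, by contrast, had log2 fold changes of 7.37, 5.81 and 4.14 at day 2 and 7.66, 6.97 and 4.08 at day 5, with no difference past the threshold (limma adjusted p = 0.714, 0.565 and 0.907). An adjusted p that misses the threshold does not show the effects to be equal.

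In the other direction, Rsad2 (viperin, an antiviral enzyme) had 697 and 815 normalized counts in the control and 311 and 356 with IFNγ at day 2, a decrease, and 26.9 and 30.2 against 86.2 and 130.5 at day 5, an increase (difference 3.03 ± 0.30 SE, limma adjusted p = 0.00364). Oas2 had 1255 and 1384 against 495 and 538 at day 2 and 53.9 and 111 against 132 and 203 at day 5, where its own change was not called (limma adjusted p = 0.211). Both genes were far more abundant in the day 2 control than in the day 5 control. Rtp4, Oasl2 and Isg15 also had a lower control level at day 5, with control means of 787, 1327 and 415 at day 2 and 34.8, 76.8 and 25.2 at day 5, and log2 fold changes of 0.51, 0.62 and 0.21 at day 2 and 2.62, 2.65 and 2.08 at day 5. The sum of the 4 Y-linked genes, which feeder cells would bring, had a mean of 235 in the day 2 control and 4.28 in the day 5 control. The part of feeder cells in the difference between the days was not tested, and day and sorting scheme cannot be told apart.

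**Figure D4:**
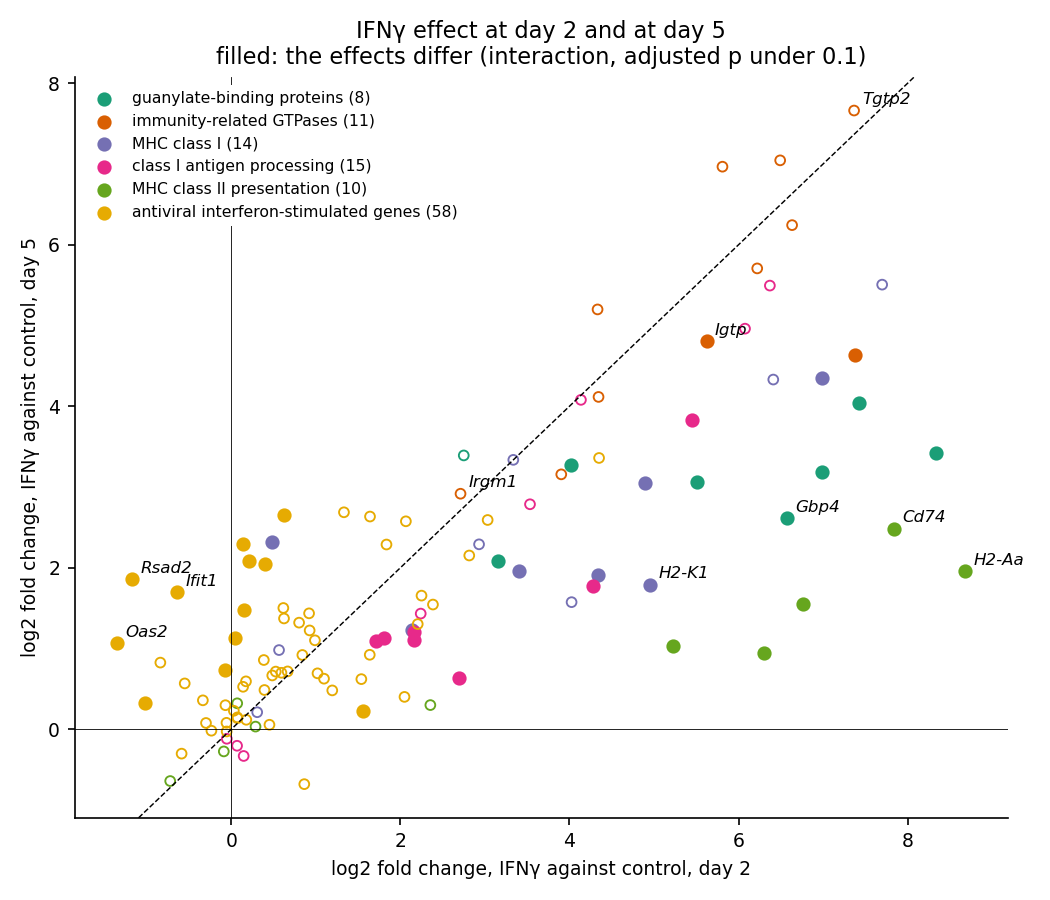
Log2 fold change of IFNγ against control at day 2 (x axis) and day 5 (y axis) for the genes of 6 lists tested on both days, coloured by list, with the number of genes in brackets. Filled points are genes whose effect differed between the days (limma interaction, adjusted p under 0.1), and the dashed line marks equal effects. The 5 filled class II genes (green) lie far below the line, with Cd74 at 7.84 at day 2 and 2.49 at day 5, and Rsad2, Oas2 and Ifit1 lie left of 0 and above the line.

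The level of the response was also set beside the later populations. Summed over 11 immunity-related GTPases, IFNγ-treated cells had 95660 and 95843 normalized counts at day 2, 10163 and 9284 at day 5. By day 7 the sums were 2527 and 2592 in the X-GFP-negative population, 625 and 849 in the X-GFP-medium one and 336 and 452 in the X-GFP-high one. In every one of these populations both libraries were above both of their own control libraries, which summed to 559 and 712 at day 5 and, in the X-GFP-high population, to 181 and 185. The 15 class I genes summed to 26069 and 21643 with IFNγ at day 5 against 7878 and 7233 in the control, and at day 7 to 23074 and 21223 against 9234 and 8830 in X-GFP-negative cells. In X-GFP-medium cells at day 7 they summed to 6720 and 7917 against 7969 and 7407, and in X-GFP-high cells to 4221 and 4648 against 4570.3 and 4294, and in both of these populations the arms overlapped. IFNγ had been taken away for 2 days by then. These sums are given as levels, with no test.

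Genes of chromosome 8 stood apart among the decreases. It carried 17 of the 81 genes that fell and 6 of the 249 that rose, and no other chromosome had more than 8 of the decreases. The median log2 fold change of its 790 genes was −0.14, while the medians of the other 19 chromosomes lay between −0.06 and 0.05. Relative to the mean of the 4 libraries its median level was 0.0995 and 0.0355 in the control libraries and −0.0478 and −0.0951 in the IFNγ libraries on the log2 scale. No library had a median of more than 0.0409 in size on any other chromosome. The shift thus had the same sign in both libraries of an arm. At day 2 the median log2 fold change of chromosome 8 was −0.02.

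Against the ESC mean, the median log2 level of chromosome 8 was −0.211 and −0.271 in the day 5 control libraries and −0.389 and −0.431 in the IFNγ libraries, while other chromosomes were at 0.0418 and 0.0438, and at 0.0516 and 0.0867. NPCs, from which both arms started, were at −0.0418 and −0.00857. At day 7 the control libraries were between −0.0622 and 0.0108 and the IFNγ libraries between −0.303 and −0.188. Whether the number of chromosome 8 copies differed between the libraries was not tested, and no DNA data were analysed here. Of the decreases described above, Ifi30 and Esrp2 lie on chromosome 8, and the glycolysis genes Slc16a3, Ndrg1 and Pfkp, Lefty1, Lefty2, Krt14 and Nefl do not. With the chromosome 8 genes left out 64 genes were lower and 243 higher, and with the median of each chromosome taken off in each library 69 were lower and 240 higher, 2 settings chosen after the data had been seen.

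**Figure D5:**
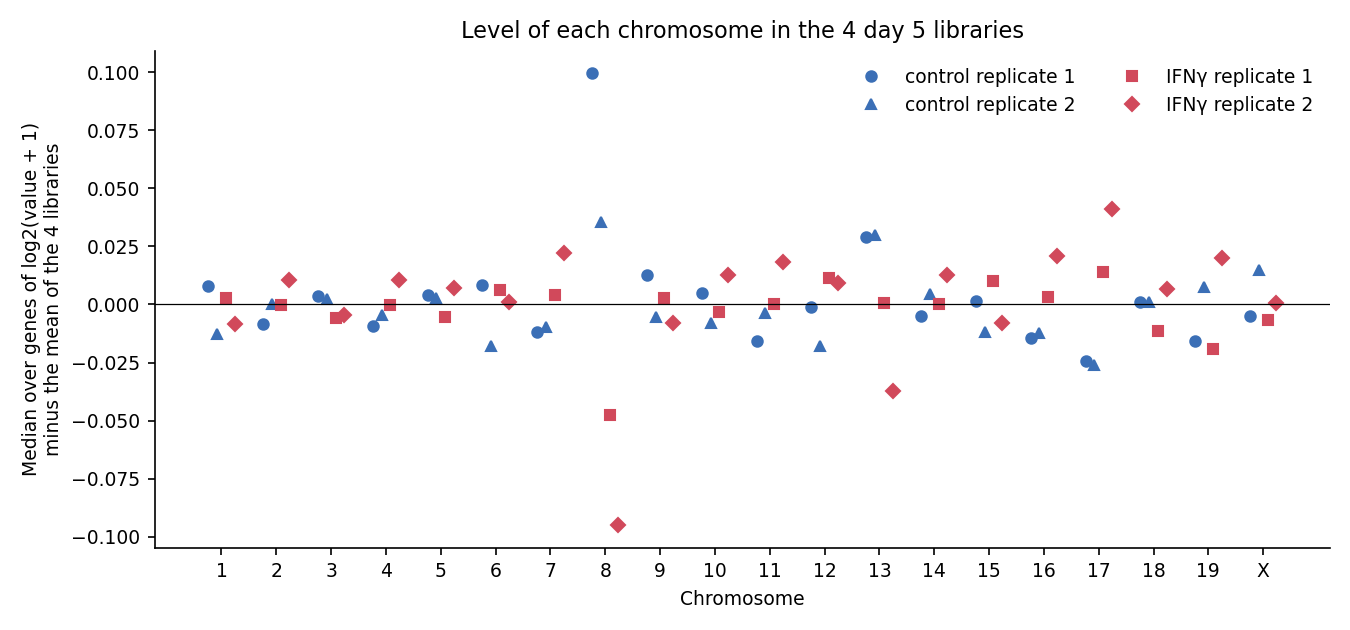
Median over the genes of each chromosome (x axis) of log2(normalized count + 1) minus the mean of the 4 libraries (y axis), for control replicates 1 and 2 (blue circle and triangle) and IFNγ replicates 1 and 2 (red square and diamond). Chromosome 8 spreads from 0.0995 in control replicate 1 to −0.0951 in IFNγ replicate 2, and every other chromosome stays within 0.0409 of 0.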

How the data were processed

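Rows of 37315 genes and columns of 24 libraries held signal values, counts deposited by the authors after division by a size factor per library. The authors masked the positions of mm10 that vary between the strains, aligned read pairs with STAR under a WASP filter, and counted reads per gene with HTSeq 0.6.1. Every value of the day 5 libraries was a whole number of reads within a tolerance of 0.1 (100%). GENCODE vM21 named 95.2% of the genes. A second deposited table held the authors' X mus proportion per gene and population.

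Genes with a mean above 10 were tested with limma 3.58.1 (lmFit, eBayes with a trend, two-sided) in R 4.3.3 on log2(normalized count + 1), with Benjamini-Hochberg adjustment and a threshold of 0.1. The study used DESeq2. DESeq2 1.42.0 and edgeR 4.0.16 on the recovered reads were alternatives, beside another pseudocount (0.1), no filter, rescaled totals, all 24 libraries, a replicate block and each library left out. The log2(value + 1) scale understates the change of low genes, and an exact test of 2 against 2 libraries cannot go below p = 0.33. The tests were first tried on simulated data. Counting intervals and floors of 3 reads cover counting error only. Named were the 10 largest increases and decreases with a group mean of at least 100, up to 4 called and 3 uncalled genes per list, the study's day 5 genes, X-inactivation center genes and 5 genes in each direction of the test between days, with the same minimum mean at day 5. Other genes named were chosen after their values were seen. The members and gene lists were chosen with earlier results of these data known. Some genes are not reported here.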

Additional observations from a re-analysis of the deposited data

Results flagged for a closer look

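The effect of IFNγ differed between day 5 and day 2 in the limma test of the difference for 10 genes named by rule. The log2 effect was larger at day 5 by 3.03 for Rsad2, 2.42 for Oas2, 2.11 for Rtp4, 2.03 for Oasl2 and 1.87 for Isg15, with adjusted p = 0.00364, 0.0716, 0.0285, 0.00764 and 0.0837. In the control the 5 genes had 756, 1319, 787, 1327 and 415 normalized counts at day 2 and 28.6, 82.4, 34.8, 76.8 and 25.2 at day 5 (means of 2 libraries). The difference, day 5 minus day 2, was −5.22 for H2-Eb1, −4.91 for Gbp2b, −3.95 for Gbp4, −3.38 for Gbp8 and −3.16 for H2-K1, with limma adjusted p = 0.000974, 0.00103, 8.02e-06, 0.00543 and 2.89e-05. All 5 were higher with IFNγ on both days. Day 2 cells were sorted as negative for a feeder dye and day 5 cells for SSEA1, so day and sort cannot be told apart.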

How the results depend on the processing

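Against 249 increases and 81 decreases at day 5, DESeq2 called 556 and 356, a limma fit over all 24 libraries 1373 and 1082, and a test with no filter on low values, which tested more genes, 134 and 7. With a pseudocount of 0.1, edgeR, rescaled totals, chromosome medians removed or chromosome 8 left out, both counts stayed within 1.5 times. With 1 library left out, the increases ranged from 107 (without IFNγ replicate 2) to 971 (without IFNγ replicate 1) and the decreases from 5 (without control replicate 1) to 852 (without IFNγ replicate 1). Against 32 genes with a more positive and 75 with a more negative effect at day 5 than at day 2, DESeq2 called 121 and 139, among them 32 and 70 of these, and the unfiltered test called 20 of the first kind, among them 17 of the 32. The numbers ranged from 8 to 191 and from 42 to 270 with 1 library left out. The counts between ESCs and NPCs stayed within 1.5 times. The cause of these shifts was not tested.

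With the replicate number as a block, 1810 genes were higher and 1569 lower at day 5, among them all 249 and 81, and 447 and 524 differed between the days. The labels do not say that a number marks a shared induction. The replicate differences of the arms correlated with 0.363 over 15133 genes and 0.424 over the 11224 with a mean of at least 100, a description over genes.

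The mean X mus proportion in place of the median was 0.0413 in control and 0.0400 in IFNγ-treated cells, and the median over genes under the NPC median was 0.00358 and 0.00460. No named call changed sign under any setting run. Of 31 named genes that limma did not call, DESeq2 called 13, the fit over all 24 libraries 17 and edgeR none. Among uncalled genes, Cdh1 had a log2 fold change of 0.11 with chromosome medians removed and −0.10 to 0.048 with 1 library left out, and Xist −0.14 to 0.22. With 2 libraries an arm, small differences are not detectable.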

Other observations

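Genes outside the gene lists held 139 of the 249 increases and 69 of the 81 decreases at day 5. The genes named here were picked from them after their values were seen. Ubd, a ubiquitin-like modifier, had no read in either control library and 116 and 77 with IFNγ, at least 30.7-fold higher against a floor of 3 reads per library. Mpeg1, the pore-forming protein perforin-2, had 5.89 and 16.9 normalized counts in the control and 187 and 193 with IFNγ. Ly6a (Sca-1), a surface protein of stem and progenitor cells, had 2681 and 2535 against 4438 and 5711, its relative Ly6e had 1212 and 1071 against 2543 and 2434, and Wars, the tryptophanyl-tRNA synthetase, had 2912 and 2933 against 5076 and 4471. These 5 calls held without each library. Csf1, the growth factor of macrophages, had 135 and 91.5 against 309 and 335, and was not called without IFNγ replicate 2 (adjusted p = 0.132).

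Among the decreases outside the lists were genes known from neurons. Gap43 had 542 and 512 normalized counts in the control and 338 and 329.8 with IFNγ, Crmp1 had 1326 and 1351 against 924 and 681, and Map2 had 2234 and 2385 against 1657 and 1694. Kitl, the ligand of the receptor Kit, had 968 and 952 against 661 and 561, while Kit itself rose from 1304 and 1349 to 1695 and 1813. None of these 5 calls held in all 4 fits without a library. In those fits the log2 fold change ran from −0.697 to −0.616 for Gap43, −0.974 to −0.534 for Crmp1 and −0.510 to −0.415 for Map2. It ran from −0.775 to −0.539 for Kitl and 0.354 to 0.451 for Kit.

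Set against the end points of reprogramming, 186 of the 249 increases were also tested between ESCs and NPCs, and 94 of them were called higher in ESCs (50.5%) and 73 lower (39.2%). Of 75 decreases tested there 43 were higher in ESCs (57.3%) and 27 lower (36%). Over the 14305 genes tested in both comparisons the shares were 43.9% and 41.2%. These shares are a description, with no test of a difference.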
